A study of Drosophila melanogaster with 3 samples.

Results

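Peaks of D19A-eGFP at annotated transposable elements were described across 914 of the 30000 peaks that the authors called on 3 pooled libraries (3.05%). A pooled peak was counted when its summit lay inside an element, or at most 250 bp from one, in the Ensembl annotation of dm6, and it was assigned to the family named before the brace in the element's name. Of the 914 peaks, 364 had the summit inside an element and 550 beside one. The libraries came from whole Drosophila melanogaster embryos, 0 to 20 h old and of both sexes, of a transgenic line with D19A, a C2H2 zinc finger protein, fused at its C-terminus to eGFP. The precipitating antibody recognised GFP per the description of the samples, while their antibody label reads D19A, and fragments ranged from 200 to 800 bp. The 3 libraries are labelled biological replicates of 1 group, and neither an untagged line nor another genotype was among the samples. Each list rests on 1 control file that the replicates share, and the files used here hold no read counts, so the depth of the libraries is unknown.

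Transposable elements are genomic sequences that move or once moved, DNA transposons by excision or rolling-circle copying and retrotransposons through an RNA intermediate. Most copies in a genome are broken remnants, and fly embryos and germ cells keep the intact ones silent with small RNAs and heterochromatin. The 1360 family, also called hoppel, is a DNA transposon related to the P element whose remnants lie in pericentromeric heterochromatin and throughout chromosome 4, where they have been tied to the silencing of nearby reporter genes. INE-1 elements are short, old, nonautonomous relatives of Helitrons.

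Summits inside 1360 copies were most frequent over positions 701 to 800 of a 1360 reference copy 1484 bp long, a stretch of 80.0% A and T, and the windows shown were picked for lying in it. The first 4 windows below are those of the strongest such peaks in the IDR list that could be printed, and the fifth is a window inside an annotated hobo (H) copy that aligned to the same stretch. Each is the 101 bp centred on a summit, read on the strand of the element from the RefSeq Release 6 assembly, with the same arms as dm6, and capitals mark the bases that aligned to positions 701 to 800.
1360{}PlexB[1481] (chr4:41768-41868, plus strand): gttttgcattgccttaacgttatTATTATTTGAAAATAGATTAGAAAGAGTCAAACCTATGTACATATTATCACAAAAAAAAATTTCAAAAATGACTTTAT
1360{}1504 (chr4:318918-319018, minus strand): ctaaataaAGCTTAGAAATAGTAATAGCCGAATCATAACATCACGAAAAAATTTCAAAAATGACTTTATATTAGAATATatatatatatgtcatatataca
1360{}ci[1482] (chr4:53538-53638, minus strand): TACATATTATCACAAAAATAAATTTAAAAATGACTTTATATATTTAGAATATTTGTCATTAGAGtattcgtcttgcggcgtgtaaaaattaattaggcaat
1360{}1119 (chr3L:23090143-23090243, minus strand): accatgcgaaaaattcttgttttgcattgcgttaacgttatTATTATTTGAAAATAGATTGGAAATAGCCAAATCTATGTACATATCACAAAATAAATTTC
H{}1612 (chr2L:20204773-20204873, minus strand): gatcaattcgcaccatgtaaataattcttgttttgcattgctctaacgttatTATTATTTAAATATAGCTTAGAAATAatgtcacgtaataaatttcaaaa
The 1360 windows were 73.3% to 79.2% A and T and aligned to the reference copy with 79.7% to 93.1% identity. The H window aligned over positions 649 to 726 with 89.7% identity.

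Windows of other families are shown for contrast, and none of their sequence aligned to the 1360 copy. Here capitals mark the bases inside the element, which fill the INE-1 window and 53 of the 101 bases of the window at the LINE-like Cr1a copy, whose summit lay at the end of the element.
INE-1{}4982 (chr2L:4030593-4030693, plus strand): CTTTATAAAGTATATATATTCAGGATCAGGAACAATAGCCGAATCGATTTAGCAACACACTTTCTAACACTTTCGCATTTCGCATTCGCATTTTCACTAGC
Cr1a{}6225 (chr3R:20845560-20845660, minus strand): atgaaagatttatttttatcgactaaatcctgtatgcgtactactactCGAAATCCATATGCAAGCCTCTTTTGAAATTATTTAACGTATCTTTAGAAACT

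Peaks at elements were in the authors' IDR list at a share near that of peaks elsewhere, and the families differed. The share was slightly lower for all element peaks together, but not for those with the summit inside an element. The IDR list, which the authors made by comparing ranks between replicates, held 210 of the 914 peaks (23.0%, 95% Wilson interval 20.4% to 25.8%), beside 25.9% of all 30000 pooled peaks and 26.0% of the 29086 pooled peaks farther than 250 bp from any element. All 210 were among the 7769 pooled peaks of highest signal, so membership of that list is a statement on rank. With the summit inside an element 96 of 364 peaks were in the IDR list (26.4%), and with the summit beside one 114 of 550 (20.7%). Intervals for shares and densities cover the counting of peaks only.

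In the replicate lists, again 30000 peaks each, element peaks numbered 927 in replicate 1, 844 in replicate 2 and 913 in replicate 3. That is 3.09%, 2.81% and 3.04% of the lists (2.98% ± 0.148, SD, n = 3). Among the 7769 strongest peaks of each list they made up 2.95%, 2.36% and 2.95%, less than in the whole list in every replicate, with a mean difference of -0.232 percentage points (SD 0.197). An exact 2-sided sign permutation over the 3 replicates gave p = 0.25, the smallest that 3 replicates allow, so this design cannot reach 0.05. The median signal percentile of element peaks was 50.3, 45.1 and 47.6, and its difference from the other peaks was positive in replicate 1 and negative in replicates 2 and 3 (exact p = 0.5). Element peaks were overlapped in all 3 replicate lists in 67.6% of cases, beside 68.7% of all pooled peaks.

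Peaks fell in 66 of the 155 family names in the annotation and at 740 of 5809 elements. Among those names, 21 are elements listed without a family, each counted as a name of its own, and spelling variants such as X and X-element were counted separately. INE-1 held 518 of them (56.7%) and 1360 held 124 (13.6%). Next came HB with 23, roo with 19, S with 18, H with 15, FB and jockey with 14 each, Cr1a with 13, and 297 and Tirant with 10 each. The other 55 names held 136 peaks, 28 of them in the IDR list, and 89 names held none.

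Of the 11 families with at least 10 peaks, 1360 was the one with an IDR share whose interval lay above that of all peaks. It held 53 IDR peaks of 124 (42.7%, 34.4% to 51.5%) and thus 25.2% of all IDR peaks at elements. Over the 69 peaks at 1360 whose windows hold only unique sequence the share was 26.1%, close to that of all peaks. These 69 join 35 peaks inside a copy, 15 of them in the IDR list (42.9%), with 34 beside a copy, 3 of them in it (8.82%). INE-1 held 106 of 518 (20.5%, 17.2% to 24.1%), an interval below 25.9%, and without chromosome 4 it held 90 of 400 (22.5%, 18.7% to 26.8%), an interval that includes it. FB, the foldback element with long inverted repeats, held 6 of 14 (42.9%, 21.4% to 67.4%), jockey 5 of 14 and H 5 of 15, and these counts are too small to place them on either side of 25.9%. At the Tc1-like S element none of 18 peaks was in the IDR list (upper limit of the interval 17.6%), and at the LTR retrotransposon roo 1 of 19 was (5.26%, 0.935% to 24.6%). Without 1360, the element peaks had an IDR share of 19.9% (17.2% to 22.8%).

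**Figure D1:**
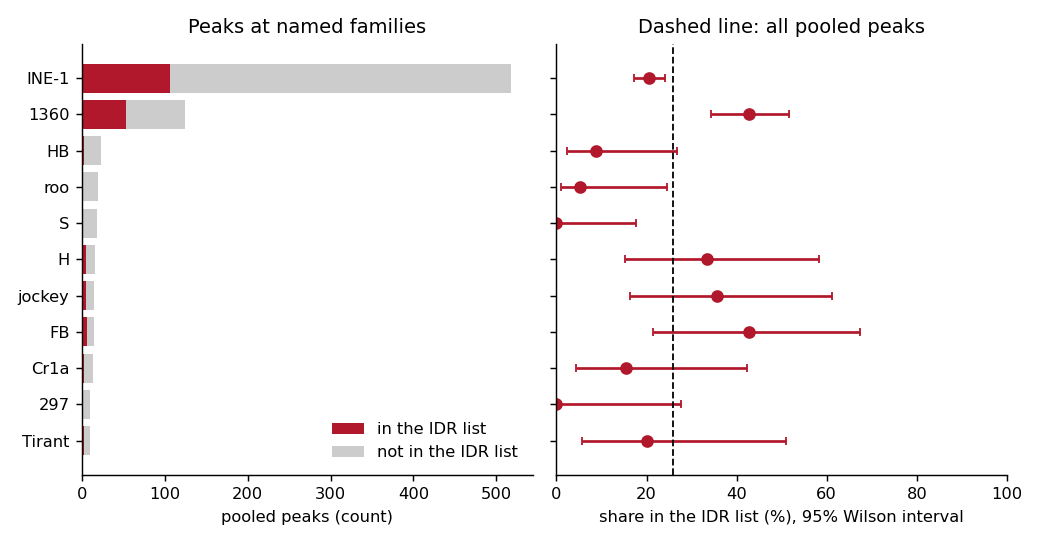
Pooled peaks at the 11 families with at least 10 peaks, as counts (left, red for those in the IDR list) and as the share in the IDR list in percent with its 95% Wilson interval (right); the dashed line is the 25.9% of all pooled peaks. INE-1 has the most peaks, 518, and the interval of 1360, from 34.4% to 51.5%, lies to the right of the line.

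The higher share of 1360 was present in each replicate list. The pooled list that singled out 1360 was called on these same libraries, so the replicate lists are not an independent check. Of the 1360 peaks, 42.7% of 124 were among the 7769 strongest in replicate 1, 36.4% of 118 in replicate 2 and 46.2% of 130 in replicate 3 (41.8% ± 4.93, SD, n = 3). All exceeded the 25.9% of the whole list, by 16.8, 10.5 and 20.3 percentage points (exact 2-sided sign permutation p = 0.25, the smallest possible). INE-1 peaks reached 22.5%, 18.7% and 24.2%, below the list in each replicate with a mean difference of -4.10 percentage points (SD 2.81, exact p = 0.25). The 1360 share exceeded that of the remaining element peaks by 20.8, 17.2 and 24.6 percentage points (exact p = 0.25). Replicate 2 gave the lowest share of both families. Leaving out chromosome 4, which held 47 of the pooled 1360 peaks, the shares were 42.5%, 31.2% and 43.8%, and in the pooled list 31 of 77 (40.3%). The pooled 1360 peaks were overlapped in all 3 replicate lists in 82.3% of cases.

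**Figure D2:**
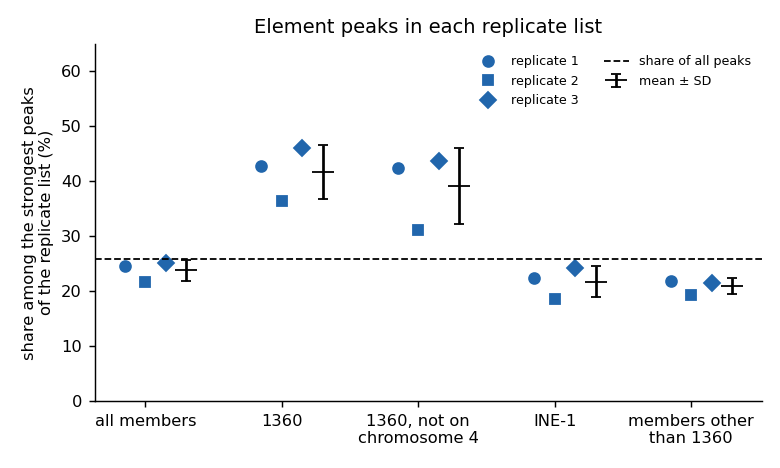
Share of element peaks among the 7769 strongest peaks of each replicate list, in percent, with symbols for replicates 1 to 3 and the mean with its SD to the right; the dashed line is the 25.9% of all peaks. All 3 symbols of 1360 lie above the line, from 36.4% to 46.2%, and those of INE-1 lie below it.

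Nearly all IDR peaks at 1360, 50 of 53, had the summit inside a copy. They were 55.6% of the 90 peaks inside copies (45.3% to 65.4%), whose median rank in the pooled list was 6241.5. Of the 34 peaks beside a copy, 3 were in the IDR list (8.82%, 3.05% to 23.0%). At INE-1, 33 of 177 peaks inside a copy (18.6%) and 73 of 341 beside one (21.4%) were in the IDR list. Inside 1360 copies the summits had a density of 241 per Mb (exact Poisson interval 194 to 296), beside 224 per Mb in the whole assembly, and IDR summits had 134 per Mb (99.5 to 177), beside 58.0. Inside INE-1 copies these values were 323 (277 to 374) and 60.2 (41.4 to 84.5). The LTR retrotransposons, which fill 4.81 Mb, had 7.07 summits per Mb inside (4.90 to 9.88), and the LINE-like elements 10.5 (6.52 to 16.1). Only 13.6% of the 50-mers in LTR retrotransposons occur a single time in the assembly, against 37.1% in 1360 and 89.2% in INE-1, and how the authors placed reads that match several copies is not given in the sources used here. All summits inside copies were also divided by the Mb of unique sequence, taken as the starts of such 50-mers. This gave 670 for 1360 and 449 for INE-1, and 372 and 83.7 for IDR summits. These counts include summits in repeated sequence, which the divisor leaves out. Of the 90 summits inside 1360 copies, 35 had a fully unique window, beside 175 of the 177 inside INE-1 copies. The values per Mb of unique sequence therefore do not rank 1360 against INE-1. On this scale the LTR retrotransposons had 47.7 summits per Mb and the LINE-like elements 34.9, still below 1360 and INE-1.

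The positions of the summits along the 1360 copies were alike in the 3 replicates. Of the 436 copies, 413 aligned to the reference copy 1360{}6383, and 82 of the 90 summits inside copies could be placed on it. Of those 82, 23 lay between positions 701 and 800, the fullest bin of 100 bp, and 20 of the 23 were in the IDR list. In the replicate lists the same bin was the fullest, with 24 of 78, 24 of 81 and 21 of 79 placed summits, of which 20, 20 and 19 were among the 7769 strongest peaks. The bin was picked as the fullest of the pooled list, which was called on these same libraries. The strongest 1360 peak of all, in 1360{}835 and ranked 139 in the pooled list, was placed outside this bin at position 435, and those in 1360{}504, ranked 266 and 270, lay at 890 and 637. The 101 bp window at 1360{}835, aligned on its own, matched positions 23 to 105 instead, with 96.4% identity. The adjoining bins from 401 to 1000 took 68 of the 82 pooled summits and 44 of the 46 in the IDR list. Positions 1001 to 1100 held no summit although 184 copies cover them, and 1301 to 1400, covered by 256 copies, held 8 summits with 1 in the IDR list. The bin from 901 to 1000, at 81.0% A and T in the reference copy, held 7 summits with 1 in the IDR list. It held 1, 7 and 1 summits in replicates 1, 2 and 3. Whether composition bears on the positions was not tested. Positions 101 to 400 are present in 2 copies and could hardly be used. Some copies hold several summits, 49 in 23 copies, at a median spacing of 223 bp and at least 200 bp apart, close to the smallest spacing of 199 bp in the whole pooled list, so such summits are not independent of each other.

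**Figure D3:**
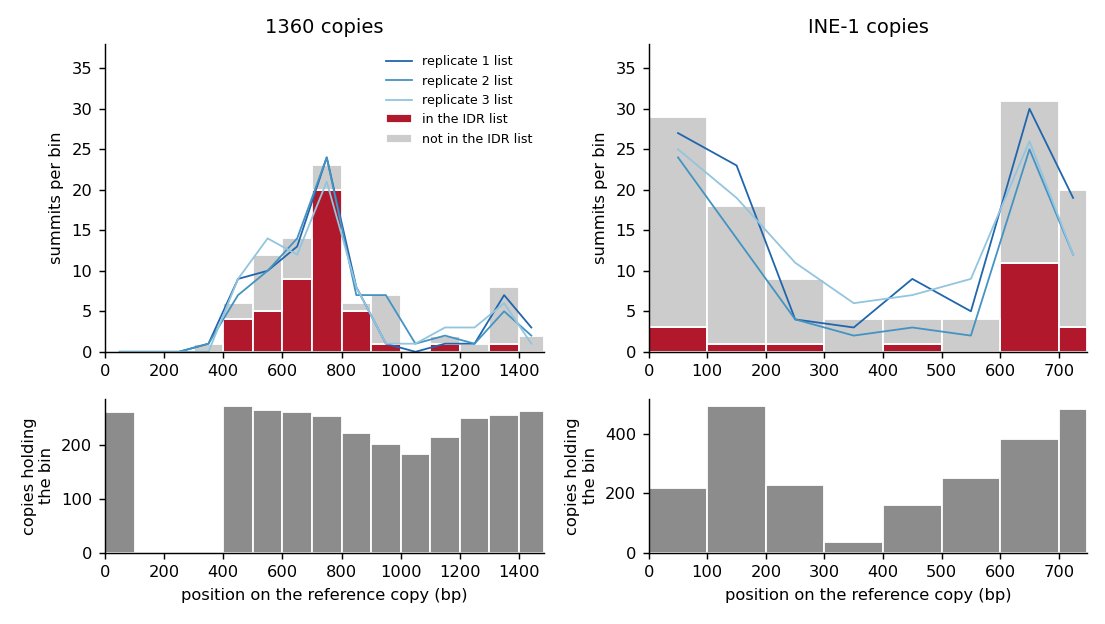
Summits inside 1360 copies (left) and INE-1 copies (right) by position on the reference copy in bp, as counts per 100 bp bin in the pooled list (bars, red for the IDR list) and in each replicate list (lines), above the number of copies that hold each bin. The 1360 summits peak between 701 and 800, with 20 of 23 in the IDR list, and the INE-1 summits gather at the ends of the copy. Some 1360 windows placed near 401 aligned on their own to the start of the reference copy.

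INE-1 summits lay mostly near the ends of the reference copy, while the fullest bin for 1360 was 701 to 800. The empty first bins of 1360 are not part of this contrast. Only 2 copies of 1360 hold positions 101 to 400, and some windows placed near 401 aligned on their own to the start. The 6 summits of 1360 at 401 to 500, 4 of them in the IDR list, could therefore lie near an end. On the reference copy INE-1{}6067, 749 bp long, 119 of the 177 summits inside copies could be placed, 47 in the first 200 bp, 51 from position 601 to the end and 21 between. In the replicates 41.7%, 44.2% and 38.3% of placed summits lay in the first 200 bp and 17.5%, 12.8% and 28.7% between. The fullest bin was 601 to 700, with 31 pooled summits, 11 of them in the IDR list, and it was the fullest in each replicate too. Copies also cover the reference unevenly, with 35 over positions 301 to 400 and 492 over 101 to 200, and the counts of summits were not corrected for this.

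A minority of the annotated 1360 copies that hold the 701 to 800 stretch were counted as carrying a peak there. The stretch was present, at 90% or more of its length, in 254 copies, and 37 of these (14.6%) had a pooled summit within 150 bp of its centre and 29 (11.4%, 8.07% to 15.9%) an IDR summit. The median A and T share at the stretch was 81.2% both in copies with an IDR summit and in copies with none. Copies with an IDR summit were less like the reference, with a median identity of 87.0% (quartiles 79.4% and 94.0%). It was 95% (93.0% and 96.0%) in the 217 copies counted as without a summit. The share also moved with how unique the sequence is. Where each 50-mer of the 101 bp window at the stretch occurs a single time in the assembly, 9 of 31 copies had an IDR summit (29.0%, 16.1% to 46.6%). Where some do, 12 of 73 had one (16.4%), and where none does, 8 of 150 (5.33%, 2.73% to 10.2%). By chromosome the share was highest on 4, with 12 of 37 copies (32.4%, 19.6% to 48.5%), and 17 of 217 elsewhere (7.83%, 4.95% to 12.2%).

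Among the peaks, in place of the copies, the IDR share was highest in the windows with the least unique sequence, although the intervals overlap. Of the 35 summits inside copies whose window holds only unique 50-mers, 15 were in the IDR list (42.9%, 28.0% to 59.1%). Of the 32 in windows that are unique over at least 50% of their 50-mers but not over all, 19 were (59.4%), and of the 23 in windows below that, 16 (69.6%, 49.1% to 84.4%). Other pooled peaks in windows unique over less than 50% numbered 35, and 5 of them were in the IDR list (14.3%). Counting every 1360 peak with a fully unique window, beside a copy or inside it, the IDR share was 26.1% of 69, close to that of all peaks. Which 1360 copies the transgenic line carries is not known from these files. The part of repeated sequence in the 1360 result was not tested.

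**Figure D4:**
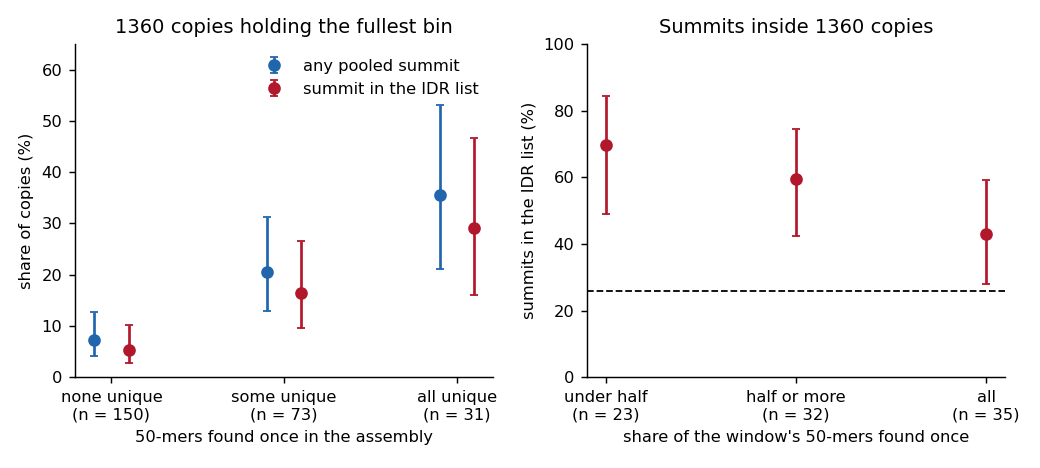
Left, share in percent of the 1360 copies holding the 701 to 800 stretch that carry a summit within 150 bp, by how many 50-mers at the stretch occur a single time in the assembly; right, share of the summits inside 1360 copies that are in the IDR list, by the share of unique 50-mers in their window, with a dashed line at 25.9%. Bars are 95% Wilson intervals; the copies rise from 5.33% to 29.0% with uniqueness, and the summits stand at 69.6%, 59.4% and 42.9% with overlapping intervals.

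Sequence that aligned to 1360 was also found under peaks that the annotation does not place at the family. All 30000 pooled summit windows were aligned to the same reference copy, and 99 aligned over at least 40 bp. Of these, 78 lay inside annotated 1360 copies and 44 of the 78 were in the IDR list (56.4%, 45.4% to 66.9%). The H window printed above was 1 more. The last 20 lay over 250 bp from any annotated element and so outside the 914, and 12 of them were in the IDR list (60.0%, 38.7% to 78.1%). Their median identity was 88.0%, and some alignments were short and weak. Examples on 3L are 45 bp with 77.8% identity at 7522126, in the IDR list, and 58 bp with 72.4% at 12691552, not in it. How many such alignments arise by chance among all windows was not tested. Of the 13 windows outside annotated 1360 copies that reached positions 701 to 800, 10 were in the IDR list (76.9%, 49.7% to 91.8%), and of the 33 inside, 27 were (81.8%, 65.6% to 91.4%). The median share of unique 50-mers in these 13 windows was 100%. The strongest, at position 22993979 of 2L, ranked 141 in the pooled list and aligned over 96 bp with 91.9% identity, and the next, at 26012495 of 3L, ranked 339.

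The strongest peaks at elements included both inside and outside summits. Of the 14 that ranked within the pooled 500, 7 were at 1360, 3 at INE-1, 2 at jockey and 1 each at Cr1a and H. The first of all, ranked 41, lay in an intron, 52 bp from the 45 bp remnant INE-1{}3917 (3L, summit 295238), and the overlapping replicate peaks ranked 41, 48 and 37. The second, ranked 90, lay 51 bp from jockey{}1450 (3R, summit 29319834) and 190 bp from the transcription start site of Cnx99A, which encodes a calnexin chaperone, and its replicate ranks were 90, 114 and 87. The third was inside 1360{}835, ranked 139, with replicate ranks 135, 214 and 90.

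Several of the others lay on chromosome 4 and 2L. Inside 1360{}1627 and 1360{}1508 on chromosome 4 the summits ranked 238 and 244, the latter in an exon of Hcf, and 1360{}PlexB[1481], in an intron of the plexin gene PlexB, ranked 438. On 2L the copy 1360{}504 held summits ranked 266 and 270 and 1360{}528 one ranked 371. H{}1612 (2L, summit 20204823) ranked 443, with replicate ranks 406, 614 and 345, and its window is the one that resembles 1360. Cr1a{}6225 (3R, summit 20845610) ranked 278. A second summit at jockey{}1450, at 29320127, ranked 483. INE-1{}3547 and INE-1{}5590 on X had summits 224 and 28 bp outside the element, ranked 175 and 183, and INE-1{}4982 (2L, summit 4030643), ranked 504, had the highest summit inside an INE-1 copy. All of these 15 peaks except INE-1{}4982 ranked lower in replicate 2 than in the other replicates, as at 1360{}PlexB[1481] with 699 beside 372 and 339.

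The strongest peaks of the remaining named families ranked lower. They were 839 at FB{}4816, 54 bp outside the element in an intron of Hs6st, a heparan sulfate sulfotransferase gene, 2740 at roo{}896, 131 bp outside, and 3682 inside HB{}482. They were 3848 at Tirant{}899, 8849 at S{}758 and 14637 at 297{}879, all beside the element, and the last 2 were not in the IDR list. All 6 IDR peaks at FB lay outside the element, and all 10 peaks at Tirant did, as did 13 of 14 at jockey. At the 250 bp limit, the last peaks counted lay 250 bp from INE-1{}1948 and 249 bp from INE-1{}3524 and jockey{}477, with pooled ranks of 28048, 1207 and 3326. The first not counted lay 251 bp from INE-1{}5434 and 252 bp from pogo{}66 and INE-1{}4023, ranked 23567, 25387 and 29211.

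Summits were sparse inside elements. Annotated elements fill 5.93% of the 133.9 Mb analysed and 7.46% lies within 250 bp of one, beside the 3.05% of peaks. Inside, there were 45.8 summits per Mb (41.2 to 50.8), in the first 50 bp outside 279 (233 to 332), at 51 to 100 bp 293 (243 to 349) and at 201 to 250 bp 224 (178 to 278), at 251 to 500 bp 213 (191 to 236), and beyond 5 kb 236 (233 to 239). Of all 50-mers in elements 23.9% are unique. For IDR summits the first 50 bp outside held 62.7 per Mb (42.0 to 90.1) and the next 50 bp 70.8 (47.8 to 101), beside 62.0 (60.5 to 63.6) beyond 5 kb. Between 101 and 250 bp the IDR densities were 46.7 to 48.6, with intervals that include 62.0, and at 251 to 500 bp the density was 42.2 (33.0 to 53.1), below it.

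**Figure D5:**
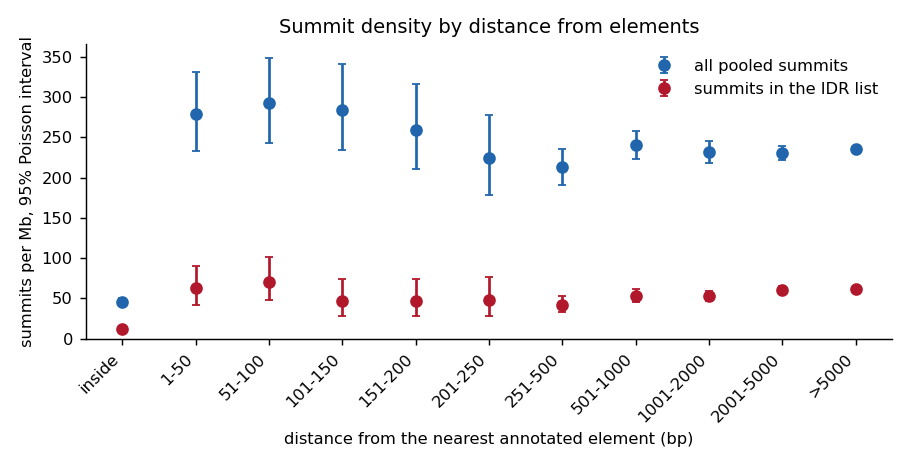
Pooled summits (blue) and IDR summits (red) per Mb of sequence at each distance in bp from the nearest annotated element, with exact 95% Poisson intervals. The density inside elements of all families together, 45.8 per Mb, is below all others, and between 1 and 150 bp the pooled density lies from 279 to 293.

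Summits at elements were richer in A and T than other summits in each replicate. The 101 bp windows averaged 65.8%, 65.9% and 65.3% in replicates 1, 2 and 3, beside 63.0%, 63.4% and 62.6% for the other peaks, a mean difference of 2.69 percentage points (SD 0.196, exact p = 0.25). Their surroundings were also richer, since windows centred 200 bp to either side of the pooled summits averaged 64.2% at elements and 58.7% elsewhere. Summits at 1360 averaged 67.9% and those at INE-1 65.7% in the pooled list.

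By location, 399 of the 914 summits were in introns (43.7%), 340 were intergenic (37.2%), 121 lay within 250 bp of a transcription start site (13.2%) and 54 in other exonic sequence. The same split of all pooled peaks was not worked out. Whether these shares, or the IDR shares by location that follow, are particular to element peaks is therefore not known. The promoter peaks at INE-1 had an IDR share of 31.2% (20 of 64) and the intronic ones 18.8% (46 of 245), and none of the 24 exonic ones was in the IDR list. For 1360 intronic and intergenic peaks had like shares, 23 of 52 (44.2%) and 24 of 54 (44.4%). Chromosome 4 carried 21.1% of the element peaks and 1.77% of all pooled peaks, and 36.3% of the peaks on it were at elements. It is also rich in elements. They filled a median of 20.2% of the 100 kb to either side of its peaks away from elements, beside 2.68% for such peaks on all arms. The share of chromosome 4 within 250 bp of an element was not worked out. Its element peaks had an IDR share of 20.7%, close to that of its other peaks (20.6%). Within it 1360 and INE-1 differed, with 22 of 47 (46.8%) and 16 of 118 (13.6%).

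Genes that silence transposable elements carried promoter peaks at about the share of all genes. Of 43 listed genes of the piRNA and siRNA pathways 42 were found, and 6 (14.3%, 6.72% to 27.8%) had an IDR summit within 250 bp of a transcription start site, beside 15.3% of all 13945 protein-coding genes. They were piwi, which encodes the nuclear Argonaute of the piRNA pathway (rank 2312 in the IDR list, 218 bp from the start site), the helicase gene vas (4180, 109 bp), squ (2894, 176 bp), the Tudor-domain gene papi (2490, 129 bp), and the siRNA genes Dcr-2 (7418, 13 bp) and r2d2 (1357, 129 bp). The genes aub, AGO3, rhi, spn-E, egg and AGO2 were among the 36 with none.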

How the data were processed

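ChIP-seq peaks were taken as deposited: 1 list for each of 3 replicates, 1 for the pooled libraries and the optimal IDR list. Per the labels, coordinates are those of dm6. The sources used here do not name the aligner, the peak caller, the read length, the treatment of multiply mapping reads or the cut-off of the IDR procedure. The signal value of each peak is the one the authors deposited, with no stated normalization, and it was used to rank peaks within a list. The −log10 q-value that the authors deposited has a ceiling of 4.20 and ranked nothing. Labels put the 3 libraries in 1 group.

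Summits were assigned to the nearest element, the shortest where several hold it. A window was 101 bp, and 50-mers were counted over the whole RefSeq assembly. Copies and windows were aligned with BLAST 2.17.0 (E-value 0.001). The longest copies, planned as references, hold nested elements, so the copy that gathered the highest summed alignment score among the 30 longest without one was used instead, a choice made after seeing the data. Windows on arm 2R, or sharing over 50 bases in a row with it, were not printed. Families with at least 10 peaks or 5 IDR peaks are named, and the 15 strongest peaks, the strongest of each named family and those nearest the limit. The peaks, gene list and rules were chosen with earlier results of these data known. Python 3.11.15, numpy 2.4.6, pandas 2.3.3 and scipy 1.17.1 were used, and the functions were tested on simulated data. Shares carry Wilson and densities exact Poisson 95% intervals. Replicates were compared with an exact sign permutation. Distances, list lengths, windows, overlap rules and replicates were varied. The listed symbol Sov was not matched.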

Additional observations from a re-analysis of the deposited data

How the results depend on the processing

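With the summit required inside an element, the count of peaks was 364 and without INE-1 396, and the IDR share was 26.4% and 26.3%. Both shares are near the 25.9% of all peaks. The stronger part of the IDR list held 11.8% of the element peaks and 12.9% of all peaks. Without 1 replicate the IDR share ran from 16.7% to 18.7%, beside 19.1% to 21.0% of all peaks, since fewer IDR peaks meet that rule. With the summit inside, the share of the replicate lists was 1.13%, and 2 results turned in direction: the share among the strongest peaks, 1.24%, exceeded that of the lists by 0.12 percentage points, and the median percentile was 50.8. The share overlapped in all 3 lists was 42.8% for summits within 100 bp, 53.8% for reciprocal overlap, and 73.8% to 75.7% without 1 replicate. Without 1 replicate the share of the lists ran from 2.93% to 3.07%, that among the strongest peaks from 2.65% to 2.95%, the percentile from 46.3 to 48.9 and the A and T share from 65.5% to 65.9%.

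Counts by class, in the order inside, at most 100 bp and at most 500 bp where they moved by over 1.5 times, were 131 inside for DNA transposons, 177 and 344 for INE-1 relatives, 21, 39 and 137 for LINE-like and 34, 54 and 161 for LTR elements. The 1360 IDR share was 55.6% inside and 26.1% over fully unique windows, while without chromosome 4 it was 40.3%. Over fully unique windows inside a copy it was 42.9%, and beside a copy, where all windows were unique, 8.82%. In the replicates the 1360 share among the strongest peaks was higher than that of the list under every alternative tried. Those varied distance, list length, chromosome 4 and replicates, and restriction to unique windows was not tried there. Without 1 replicate the share ran from 39.6% to 44.5%. The longest copies placed 22 of the 1360 summits and 27 of the INE-1 summits, and the copies used 82 and 119. Silencing genes with a promoter peak numbered 2 at 100 bp and 10 at 500 bp, and the share of all genes at these distances was not worked out. These counts take any IDR summit at any start site of a gene. Among the distances given above for single summits, only that of Dcr-2, 13 bp, is under 100 bp.

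No paired analysis was possible because the samples form 1 group. Depth is unknown, and 3 replicates cannot give a p under 0.25.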
